A study of Mus musculus with 60 samples.

Results

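H3K27me3 peaks of the left hippocampus were set against those of the right hippocampus in sedentary mice, as 2 pooled peak lists. The lists were chosen by their labels, as the H3K27me3 lists of the sedentary condition from the separate isolation. The left list held 14491 peaks and the right list 21790, together 36281 of the 256375 peaks in the 12 lists of the series. For each hemisphere the labels give 3 samples, 6 of the 60 samples in all.

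All of these mice were Emx1-NuTRAP males, the progeny of an Emx1-Cre line and the NuTRAP reporter. In them the nuclei of Cre-expressing cells carry a tag by which they can be pulled down (the INTACT method). Emx1-Cre is active mainly in excitatory neurons of the forebrain, and also in some astrocytes that descend from the same progenitors, so the nuclei are neuron-enriched and not a single cell type. Sedentary mice lived in standard cages from postnatal day 21 to 41. In the separate isolation, tissue of one hemisphere was used for nuclei and that of the other for RNA, so left and right nuclei came from different mice. The hemisphere and the mice behind a list cannot be told apart. Further H3K27me3 lists came from sedentary mice by simultaneous isolation from both hippocampi in one tube (SIT), and from mice with a running wheel over the same days (exercised) as left, right and SIT lists. The deposited lists give where peaks lie, with no read count, no signal and no sample of origin. Each hemisphere is therefore 1 value with no replicate spread, no difference below could be tested against one, and the depth behind each list is unknown. Intervals are 95% Wilson intervals and reflect nothing but the number of peaks or genes counted.

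H3K27me3 is trimethylation of lysine 27 on histone H3, written by Polycomb repressive complex 2 and bound by Polycomb repressive complex 1. It spreads over genes that a cell keeps silent, above all transcription factors of other lineages, where it can form long domains around CpG-rich promoters, and it is depleted from promoters of genes in use. In neurons such domains cover developmental regulators and genes of other cell types. CUT&RUN maps the mark by cutting and releasing the DNA around an antibody bound inside nuclei. The peak caller SEACR joins neighbouring signal into blocks, so that 1 domain can be returned as 1 long peak or as several shorter ones.

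Promoters of 6 genes are shown for the states a start site can have in the comparison: in a peak of both lists, of the left list alone or of the right list alone. The sequences are the 250 bases before the RefSeq start site on GRCm38.p6, 5′ to 3′ on the strand of the gene, with each CpG in capitals. Gad2 (chr2:22622077-22622326, + strand), which encodes a GABA-synthesizing enzyme of interneurons, lay in a 19045 bp peak of the left list and a 20256 bp peak of the right list. Sst (chr16:23890845-23891094, - strand), for the interneuron peptide somatostatin, lay in peaks of 10472 bp in the left list and 11565 bp in the right list. Grik3 (chr4:125490446-125490695, + strand), a kainate receptor subunit, lay in a 22439 bp right peak, and the nearest left peak was 1078 bp away. Cx3cr1 (chr9:120068297-120068546, - strand), the fractalkine receptor of microglia, lay in a 3961 bp right peak, and the nearest left peak was 334173 bp away. Vip (chr10:5638968-5639217, + strand), an interneuron peptide, lay in a 5440 bp left peak, with a right peak 208 bp away. Lhx9 (chr1:138842445-138842694, - strand), a LIM homeobox factor, lay in a 3061 bp right peak here, with a left peak 164 bp away.
Gad2: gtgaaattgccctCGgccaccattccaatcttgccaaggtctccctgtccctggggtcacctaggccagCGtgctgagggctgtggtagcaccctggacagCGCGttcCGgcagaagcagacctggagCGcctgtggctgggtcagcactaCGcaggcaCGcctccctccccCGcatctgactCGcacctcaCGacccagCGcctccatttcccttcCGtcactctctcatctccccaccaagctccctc
Sst: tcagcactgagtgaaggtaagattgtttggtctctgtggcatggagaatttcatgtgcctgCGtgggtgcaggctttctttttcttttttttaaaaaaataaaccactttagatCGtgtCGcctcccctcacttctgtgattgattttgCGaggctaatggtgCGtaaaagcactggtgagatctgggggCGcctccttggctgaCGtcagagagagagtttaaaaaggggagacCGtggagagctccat
Grik3: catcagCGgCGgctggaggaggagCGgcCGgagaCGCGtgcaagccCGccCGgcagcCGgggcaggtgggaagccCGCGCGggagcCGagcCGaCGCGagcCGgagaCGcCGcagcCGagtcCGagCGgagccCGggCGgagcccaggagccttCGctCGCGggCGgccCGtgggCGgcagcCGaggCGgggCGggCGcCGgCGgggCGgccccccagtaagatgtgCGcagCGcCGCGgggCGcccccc
Cx3cr1: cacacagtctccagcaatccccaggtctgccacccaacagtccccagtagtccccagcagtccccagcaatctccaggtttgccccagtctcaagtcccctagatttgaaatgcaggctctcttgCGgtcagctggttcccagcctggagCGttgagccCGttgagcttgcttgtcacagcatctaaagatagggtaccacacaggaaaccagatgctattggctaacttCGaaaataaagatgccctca
Vip: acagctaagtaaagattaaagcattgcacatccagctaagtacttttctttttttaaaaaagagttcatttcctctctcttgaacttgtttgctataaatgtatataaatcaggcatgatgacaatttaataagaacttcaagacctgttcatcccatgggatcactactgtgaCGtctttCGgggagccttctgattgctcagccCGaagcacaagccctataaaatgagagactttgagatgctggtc
Lhx9: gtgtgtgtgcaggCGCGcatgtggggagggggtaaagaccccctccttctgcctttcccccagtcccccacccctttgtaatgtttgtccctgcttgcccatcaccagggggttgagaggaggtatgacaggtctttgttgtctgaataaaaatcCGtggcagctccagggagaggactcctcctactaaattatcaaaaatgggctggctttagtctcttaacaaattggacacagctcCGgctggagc
These windows held 13 CpGs in Gad2, 8 in Sst, 42 in Grik3, 4 in Cx3cr1, 3 in Vip and 4 in Lhx9. The 6 promoters thus ran from CpG-rich to CpG-poor.

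The right list was longer than the left list, and the left list lay mostly inside it. Left peaks covered 73.9 Mb and right peaks 114 Mb, a ratio of 1.55 for bases and of 1.504 for the number of peaks. Of left peaks, 13071 (90.2%, interval 89.7 to 90.7%) overlapped a right peak by at least 1 bp. Of right peaks, 11461 (52.6%, interval 51.9 to 53.3%) overlapped a left peak. The 2 lists had 64.5 Mb in common, which was 87.4% of the bases of the left list and 56.4% of those of the right list. Peaks found in the left list alone numbered 1420 and those found in the right list alone 10329. The right list was also cut to its 14491 widest peaks, so that both lists were of one length in number of peaks. Then 81.2% of left peaks and 67.1% of right peaks overlapped, and 2725 left peaks and 4761 right peaks stood alone. Bases were not matched by this cut. The cut right list still covered 100 Mb against 73.9 Mb, and its narrowest peak had 2428 bp against 297 bp in the left list.

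Peaks of 1 list alone were narrow. The median width was 2448 bp for left-alone peaks and 2353 bp for right-alone peaks, against 3567 bp for overlapped left peaks and 4912 bp for overlapped right peaks. Every one of the 1234 left peaks of 10 kb or wider overlapped a right peak, as did 2129 of the 2151 right peaks of that width (99.0%), and all 361 left and 676 right peaks of 20 kb or wider were overlapped. The share overlapped grew with width. With each list divided into 5 equal groups by width, it went from 79.2% in the narrowest to 99.9% in the widest group of the left list, and in the right list from 23.9% to 95.3%. A wider peak is more likely to meet another by 1 bp, so part of this rise is built into the measure. When the same groups were counted with a reciprocal overlap of 50%, a count by width that was added after seeing the data, the shares went from 31.1% to 71.6% in the left list and from 11.2% to 59.1% in the right list.

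**Figure D1:**
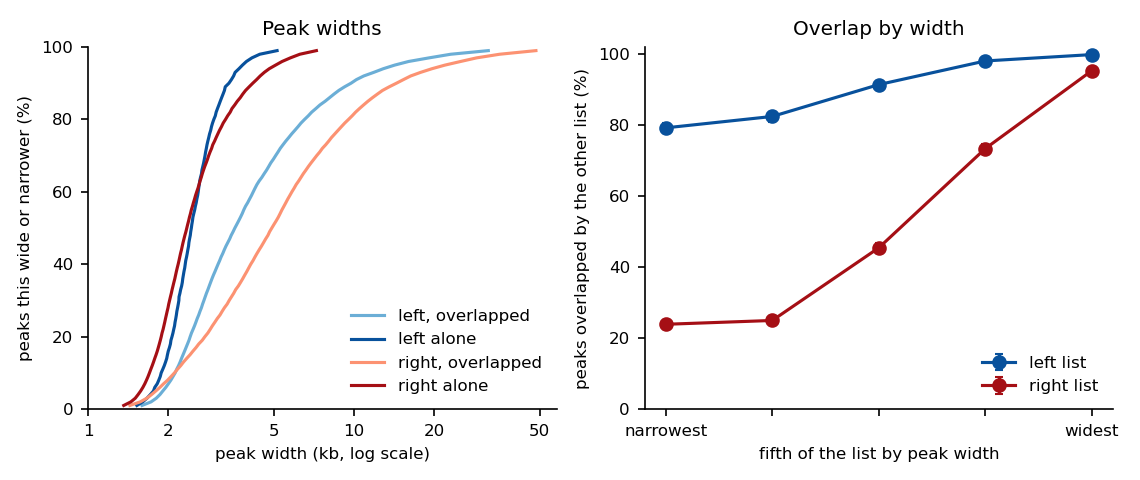
Left panel: cumulative share of peaks (%) against peak width (kb, log scale) for left and right peaks that are overlapped by the other list or stand alone, drawn from the 1st to the 99th percentile. Right panel: share of peaks overlapped by the other list (%) in each of 5 equal groups of a list by width, with 95% Wilson intervals that are smaller than the points. Peaks that stand alone are narrower (medians of 2448 and 2353 bp), and overlap rises with width in both lists.

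The widest left-alone peak had 6321 bp (chr6:15499213-15505533) and lay 122524 bp from the assigned start site of Foxp2, a forkhead factor. It was followed by peaks of 6310 bp assigned to Pfkp, a glycolytic phosphofructokinase, and 6307 bp in an intron of Ankfn1. The widest right-alone peak had 16733 bp (chr9:32430907-32447639) and was assigned to Kcnj1, a potassium channel. The next had 13477 bp and lay at -28772 bp from the assigned start site of Tox2, a high mobility group factor, and the third had 12737 bp and lay at -41649 bp from that of Grik3, where minus means upstream. Of the 5 widest peaks of each list, 4 were at the same places in both. The other one was the HoxA cluster in the left list, with 109498 bp, and a peak of 150386 bp beside Ebf1 in the right list. The HoxC cluster was under a peak of 183681 bp in the left list and 193654 bp in the right list, both assigned to Hotair, a non-coding RNA inside that cluster. The HoxB cluster was under 142471 bp in the left list and 161281 bp in the right list. A peak on chromosome 7 assigned to Gm10578 was 153742 bp wide in the left list and 154745 bp in the right list. A peak on chromosome 13 assigned to Gm21188 was 114015 bp wide in the left list and 174937 bp in the right list. Predicted genes with near-identical copies lie in that region. Reads there may map to more than 1 place, which was not tested, so its width is uncertain.

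Standing alone did not mean standing far away in every case. A right peak lay within 3000 bp of 464 of the 1420 left-alone peaks (32.7%), and the median distance was 6794 bp. A left peak lay within 3000 bp of 2086 of the 10329 right-alone peaks (20.2%), and the median distance was 11507 bp. Most overlapped peaks held 1 peak of the other list (92.4% of left and 83.9% of right peaks). Of the overlapped right peaks, 16.1% (interval 15.5 to 16.8%) held 2 or more left peaks and 1 held as many as 9, whereas 7.55% (interval 7.11 to 8.02%) of overlapped left peaks held 2 or more right peaks. Some stretches thus had peaks in both lists and differed in how far these were joined.

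The surplus of right peaks was spread over the genome. On each of the 19 autosomes the right list covered more bases than the left list, with a ratio between 1.34 on chromosome 3 and 1.82 on chromosome 7, and a median of 1.57. The share of left peaks overlapped ranged from 85.7% on chromosome 1 to 95.3% on chromosome 7. Chromosome X held few peaks in either list, 51 left and 84 right, or 0.298 and 0.491 per Mb, whereas autosomes held 3.34 to 8.66 per Mb in the left list and 5.71 to 12.9 in the right list. Chromosome Y held 3 left and 4 right peaks.

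By the authors' annotation classes, in which promoters reach 3 kb from a start site, the 2 lists were alike as wholes. Promoter peaks made up 21.3% of the left list (interval 20.6 to 21.9%) and 19.5% of the right list (18.97 to 20.02%). Distal intergenic peaks made up 44.9% and 46.0%, and intron peaks 20.2% and 20.3%. The order of the promoter shares turned when the right list was cut to the length of the left list, with 23.0% in the right list. That cut takes away narrow right peaks, which were less often at promoters, and in the widest 50% of each list the left share stayed higher (27.9% against 26.1%). The larger contrast was between overlapped and single peaks. Promoters made up 22.4% of overlapped left peaks but 10.8% of left-alone peaks (interval 9.33 to 12.6%), and 25.2% of overlapped right peaks but 13.2% of right-alone peaks (12.5 to 13.8%). Distal intergenic sequence made up 54.2% of left-alone peaks (51.6 to 56.8%) and 5164 of the 10329 right-alone peaks (49.0 to 51.0%), against 43.9% and 42.5% of overlapped peaks. More than 100 kb from the assigned start site lay 31.6% of left-alone peaks (29.3 to 34.1%) and 26.1% of right-alone peaks (25.3 to 26.98%). Peaks of 1 list alone were thus less often at promoters in both hemispheres. Wider peaks were more often at promoters in each list, from 13.2% in the narrowest to 36.0% in the widest of the 5 groups of the left list, and the share of width in this contrast was not tested.

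Base composition, read from the GRCm38.p6 genome, set left-alone peaks a little apart. Their median GC content was 41.3%, near the 41.7% of the chromosomes as a whole, whereas overlapped left peaks, overlapped right peaks and right-alone peaks each had a median of 44.1%. Median CpGs per 100 bp were 0.774 in left-alone peaks, 0.924 in right-alone peaks, 1.03 in overlapped left peaks and 1.01 in overlapped right peaks. Bases marked as repeats in the genome sequence made up a median of 18.7 to 19.7% in the 4 sets, below the 36.4% of the chromosomes as a whole. CpG content was also counted at promoters. Of 32851 RefSeq promoter windows, which run from 250 bases before to 50 after a start site, 2087 lay wholly in a peak of both lists, and 52.0% of these (interval 49.8 to 54.1%) held 10 or more CpGs. That share was 26.2% (18.7 to 35.5%) of the 103 windows wholly in a left peak and free of right peaks, 31.8% (28.7 to 35.1%) of the 821 in a right peak and free of left peaks, and 43.4% of the 29436 in neither. Over all windows it was 43.5%. Promoters marked in both lists were CpG-richer than those marked in 1 list, with a median of 10 CpGs against 5 for left-alone and 5 for right-alone windows, and the intervals of the left-alone and right-alone shares overlapped.

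Single peaks were looked for in the other H3K27me3 lists, which came from other samples and did not enter the classes. Overlapped peaks were found there far more often than single ones. Of overlapped peaks, 73.3% (left) and 70.9% (right) had a peak in the sedentary SIT list, but only 12.7% of left-alone peaks (interval 11.1 to 14.6%) and 17.8% of right-alone peaks (17.1 to 18.5%) did. In the exercised left list the shares were 87.2% and 86.2% for overlapped peaks, 35.8% (33.3 to 38.3%) for left-alone peaks and 40.3% (39.3 to 41.2%) for right-alone peaks. In the exercised right list they were 53.6% and 53.0% for overlapped peaks, 9.58% (8.15 to 11.2%) for left-alone peaks and 8.01% (7.50 to 8.55%) for right-alone peaks. The order of left-alone and right-alone peaks depended on the overlap required. A reciprocal overlap of 50%, required for the classes and for a find, set 6868 left and 14167 right peaks as alone. These sets take in peaks that overlapped the other list by less. Left-alone peaks were then found for 23.4% in sedentary SIT, 33.5% in exercised left and 22.2% in exercised right. Right-alone peaks were found for 16.6, 27.6 and 5.53%. The order thus turned in the first and the second of these lists, in other sets of peaks. Right-alone peaks were therefore found more often in the left list of exercised mice than in their right list. The exercised left list was the longer one, with 18262 peaks against 9899. Cut to its 9899 widest peaks, it held 13.8% of left-alone and 17.5% of right-alone peaks, still above the exercised right list. In the exercised SIT list, the longest with 25693 peaks, 66.2% of left-alone and 68.8% of right-alone peaks were found. Only 356 left-alone peaks (25.1%) and 2470 right-alone peaks (23.9%) were in none of the 4 other lists. H4K8ac, an acetylation of histone H4 found at genes in use, rarely lay on these peaks: between 0.352% and 0.811% of each of the 4 sets overlapped an H4K8ac peak of sedentary left or right hippocampus.

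**Figure D2:**
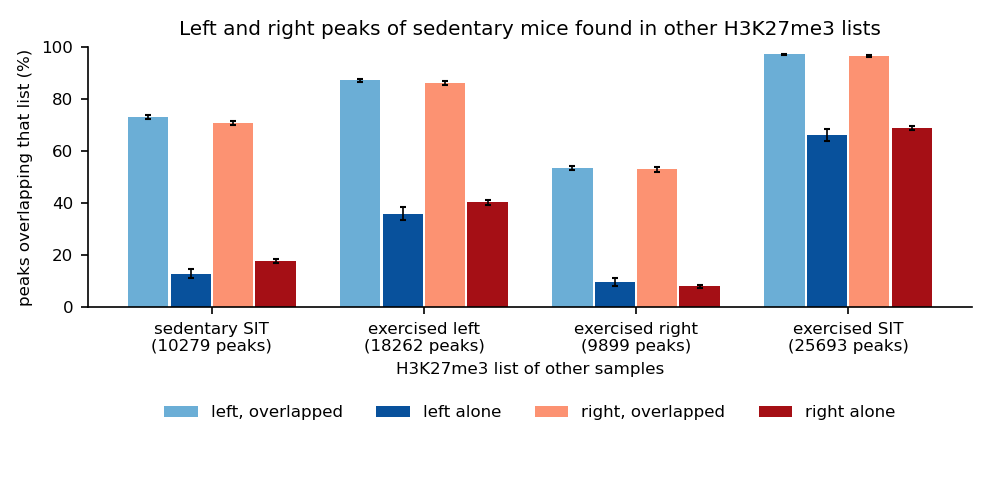
Share of peaks (%) of 4 sets (left peaks and right peaks of sedentary mice, overlapped by the other hemisphere or alone) that overlap a peak of another H3K27me3 list, with 95% Wilson intervals. Peaks that stand alone are found less often in each of the 4 lists, and the shares rise with the length of that list, from 9899 to 25693 peaks.

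Stretches were also compared as domains. Peaks of both lists that lay 3000 bp or less apart were joined into 15554 domains. Of these, 8156 (52.4%) held peaks of both lists, 6482 (41.7%) right peaks alone and 916 (5.89%) left peaks alone. With lists of one length, 3196 domains held right peaks alone and 1967 left peaks alone. Domains of both lists had a median span of 7475 bp, whereas left-alone and right-alone domains had medians of 2460 and 2426 bp. Of the 1316 broad domains, those that spanned 20 kb or more, 1308 held peaks of both lists, 8 of the right list alone and 0 of the left list alone. Since domains join peaks of both lists, a longer one is more likely to hold a peak of each, and part of this count is built into the measure. Peaks of the other lists were in 1311 of the broad domains for sedentary SIT, 1315 for exercised left and 1232 for exercised right.

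Within the broad domains of both hemispheres the right list covered more bases. It did so in 1233 of 1308 (94.3%) and the left list in 75, against 77.6% of all 8156 domains of both lists and 74.4% of those under 20 kb. Wide right peaks themselves lengthen a domain, so the choice by span favours domains with more right bases. The median domain was covered to 67.5% by left peaks and to 89.97% by right peaks, and the median ratio of right to left bases was 1.31. The number of peaks did not follow, since the left list had more peaks in 508 of these domains, the right list in 463, and 337 had equal numbers.

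**Figure D3:**
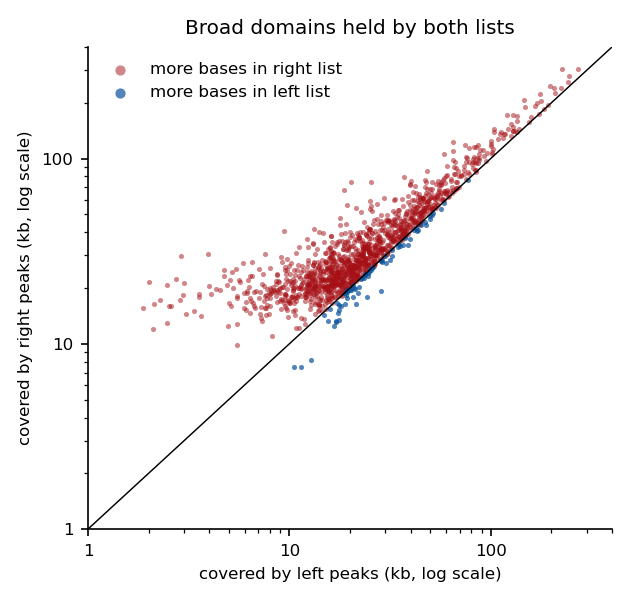
Bases (kb, log scales) covered by left peaks and by right peaks in each of the 1308 broad domains that both lists hold, with the line of equal coverage. Of these, 1233 domains lie above the line (more bases in the right list) and 75 below it.

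The 10 domains with the largest surplus of right bases were long stretches that right peaks covered nearly throughout and left peaks in part. The largest surplus was 79709 bp, in a domain of 314574 bp (chr5:136388364-136702937) that held the start sites of Cux1, a homeobox factor of upper-layer cortical neurons, and Myl10, a myosin light chain. It had 33 left peaks over 71.8% of its span and 9 right peaks over 97.2%. The neighbouring domain on chromosome 5, also among the 10, was covered to 22.5% by 6 left peaks and to 83.2% by 13 right peaks. At Tox2 (chr2:163155849-163280507), 13 left peaks covered 52.1% and 4 right peaks 98.2%. At Foxb1, a forkhead factor of the developing brain, 19 left peaks covered 75.5% of 261656 bp and 17 right peaks 93.6%. In all, 7 of the 10 had no protein-coding start site inside. A pair of these lay on chromosome 4 between 68134 and 126886 bp from the nearest start sites, those of Elavl4 and Dmrta2, and were covered to 28.4% and 25.3% by left peaks and to 83.3% and 91.2% by right peaks. The exercised left list covered 92.4 Mb in all and the exercised right list 41.2 Mb. In each of the 10, peaks of the exercised left list covered more of the span than those of the exercised right list, for example 88.3% and 52.2% at Cux1 and 76.4% and 25.1% at Tox2.

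Surpluses of left bases were smaller. The largest was in a left-alone domain of 3 peaks with 10321 bp (chr6:9694838-9708365) that lay 746407 bp from the nearest start site, that of Nxph1, a neurexin ligand. Exercised left peaks covered 34.9% of it, exercised SIT peaks 37.5%, and sedentary SIT and exercised right peaks 0%. The second lay on chromosome 8 near Gm21119, where left peaks covered 87.3% and right peaks 59.1% of 32770 bp, and the third on chromosome 14 near Gm8362, with 9335 left and 1688 right bases. Predicted genes with many near-identical copies surround both. Reads there may map to more than 1 place, which was not tested, so their peaks are uncertain. None of the 10 domains with the largest left surplus held a protein-coding start site. They included places near Foxp2, with 8192 left and 1817 right bases, and near Erbb4, the neuregulin receptor, with 24242 and 17944. The widest right-alone domain had 30544 bp (chr9:29797249-29827792) and lay 135349 bp from the start site of Ntm, an adhesion protein of neurons. Its 4 right peaks covered 91.7% of it, sedentary SIT peaks 60.6%, exercised left peaks 20.5% and exercised right peaks 0%. Another right-alone domain near Ntm had 21781 bp, of which sedentary SIT peaks covered 80.2%. Others of the 5 widest right-alone domains were nearest to Tmem132d and Haao, with 24655 and 23943 bp.

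**Figure D4:**
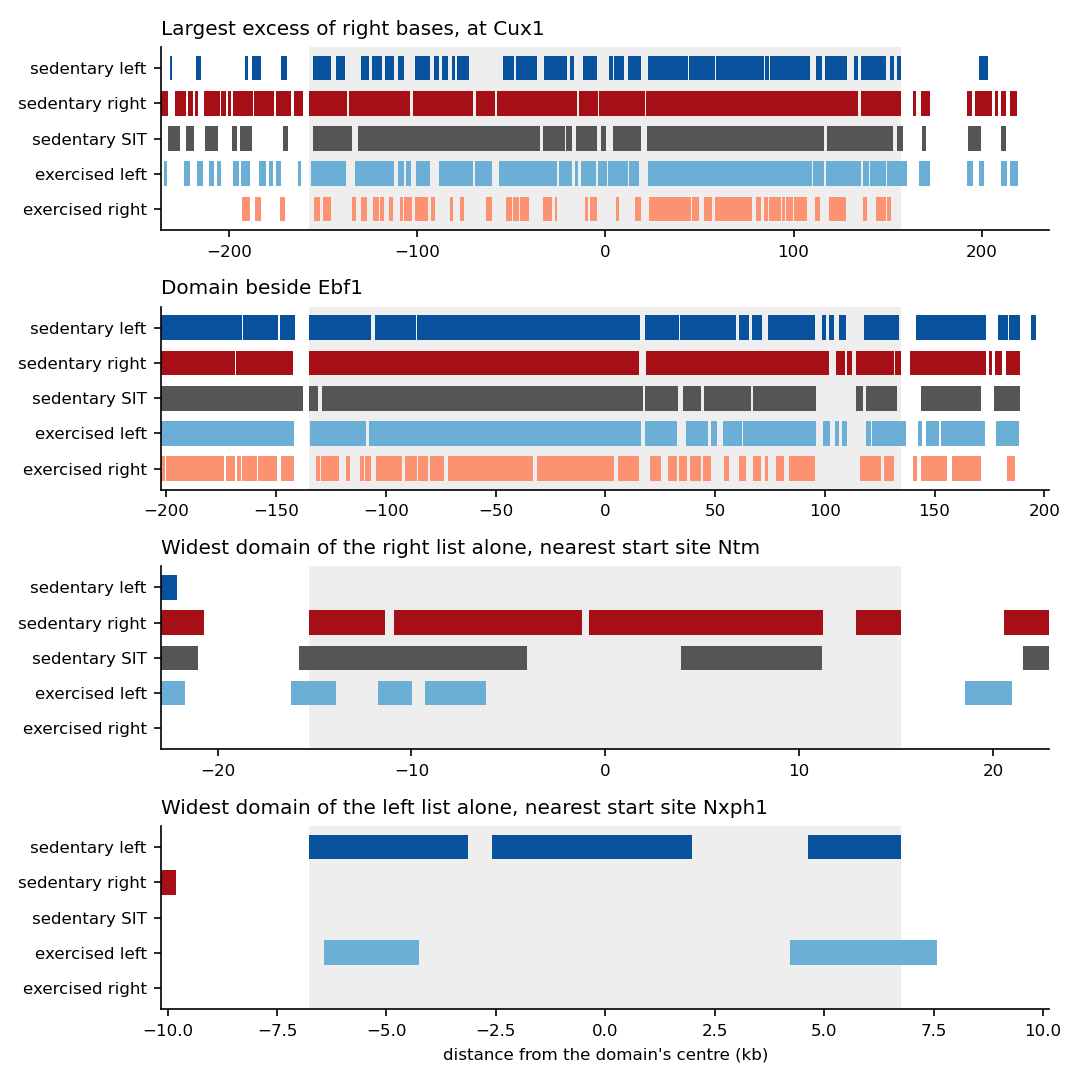
Peaks of 5 H3K27me3 lists (blocks, 1 row per list) against distance from the domain's centre (kb), with the domain shaded, for the domain with the largest surplus of right bases (Cux1), a long domain beside Ebf1 and the widest domains of the right list alone (nearest start site Ntm) and of the left list alone (nearest start site Nxph1). At Cux1 the left list has 33 peaks and the right list 9 over the same stretch, while beside Ebf1 the lists cover 89.99% and 96.5%.

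The domain beside Ebf1, an early B-cell factor, shows the other end of the range. It spanned 269776 bp (chr11:44705102-44974877), with 12 left peaks over 89.99% and 7 right peaks over 96.5%. The longest domain of all spanned 324601 bp and held the start site of Plcb4, a phospholipase of neuronal signalling, and left peaks covered 83.6% of it and right peaks 94.2%. The HoxB domain, 291025 bp with Hoxb1 to Hoxb9 and Hoxb13, was covered to 83.7% and 96.0%.

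By the authors' assignment of peaks to genes, 4385 genes were listed in both hemispheres (69.6% of the 6301 listed in either), 1633 in the right list alone (25.9%) and 283 in the left list alone (4.49%). With lists of one length the counts were 4037 in both, 821 in the right list alone and 631 in the left list alone. Most single-list genes rested on 1 peak, namely 264 of the 283 left-alone genes (93.3%) and 1243 of the 1633 right-alone genes (76.1%). For 67 of the left-alone genes (23.7%) and 46 of the right-alone genes (2.82%), a peak overlapped one of the other list that had been given to another gene. Genes of both lists were also listed in sedentary SIT for 79.5%, while this was so for 13.4% of left-alone genes (interval 9.94 to 17.9%) and 16.0% of right-alone genes (14.3 to 17.9%). In exercised mice, 75 of the 283 left-alone genes were again in the left list alone (26.5%) and 25 in the right list alone (8.83%). Of the 1633 right-alone genes, 56 were again in the right list alone (3.43%) and 580 in the left list alone (35.5%). Of the 4385 genes of both sedentary lists, 22.6% were in the exercised left list alone and 1.73% in the exercised right list alone. Genes of all 3 sets were thus more often in the exercised left list alone than in the exercised right list alone, the left list being the longer of that pair. Of the 75 genes of the left list alone in both conditions, 57 had no peak that touched the other hemisphere's list in either condition, and 40 of these had peaks at the same place. Of the 56 of the right list alone, these counts were 48 and 40.

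Among left-alone genes with no peak touching the right list, Dnajc5b, for a DnaJ co-chaperone, had the largest total width, 11169 bp in 4 peaks between 19546397 and 19580561 on chromosome 3, and the nearest right peak was 103041 bp away. F930017D23Rik followed with 6899 bp in 2 peaks, and Sytl4, for a granule-docking synaptotagmin-like protein, with 6191 bp in 2 promoter peaks on chromosome X. Then came Tbc1d15 (5522 bp), Gm12532 (5265 bp), Morc1 (5045 bp), Pon3 (5007 bp), Grn (4913 bp), Hnrnpll (4520 bp) and Gtf2a1 (4433 bp). Grn encodes progranulin, a lysosomal protein, and its peaks lay 6544 to 8885 bp from the start site. Of these 10 genes, 6 had no peak overlapped in the sedentary SIT, exercised left and exercised right lists (Dnajc5b, F930017D23Rik, Pon3, Grn, Hnrnpll and Gtf2a1). In the exercised SIT list, Dnajc5b, F930017D23Rik, Pon3 and Hnrnpll each had 1 peak overlapped, and Grn and Gtf2a1 had 0. Gm12532, with 1 promoter peak, was overlapped in each of the 3 lists, so this place had peaks in lists other than the left ones.

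Right-alone genes reached larger totals. Mad1l1, for a spindle checkpoint protein, had 12 peaks with 42386 bp between 140012513 and 140132932 on chromosome 5, and the nearest left peak was 76321 bp away. Of these 12 peaks, 5 were overlapped in the exercised left list, 9 in the exercised SIT list and 0 in the exercised right and sedentary SIT lists. 9330162B11Rik had 34864 bp in 8 peaks, Glt1d1, for a glycosyltransferase-like protein, 30742 bp in 12 peaks, Gm15413 22552 bp in 6 peaks and Fam209 21339 bp in 5 peaks. Tmem241 (20521 bp), Gm5458 (18446 bp), Gbp3, for an interferon-induced GTPase (16312 bp), 1500015L24Rik (16078 bp) and Ttll9 (16014 bp) completed the 10. All 10 had at least 2 peaks overlapped in the exercised left list, and 5 had none in the exercised right list. For Fam209 and Gbp3 a left peak lay 2714 and 2788 bp away.

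Start sites give a measure that does not rest on the assignment to the nearest gene. Of 21938 protein-coding genes, 1518 (6.92%, interval 6.59 to 7.26%) had their start site in a peak of both lists, 621 (2.83%) in a right peak alone and 89 (0.406%) in a left peak alone. With lists of one length the counts were 1473, 442 and 134. Start sites in both lists were in a sedentary SIT peak for 86.3%, those of the right list alone for 29.8% (26.3 to 33.5%) and those of the left list alone for 25.8% (17.9 to 35.8%). H4K8ac peaks of sedentary left hippocampus lay on 14.4% of start sites in neither list but on 2 of the 1518 in both.

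The 39 Hox genes, which set position along the body axis and are silent in the forebrain, were covered in both hemispheres nearly throughout. The start sites of 37 lay in peaks of both lists, and those of Hoxa4 and Hoxa13 in 1. Among all protein-coding genes, 6.92% were in both lists, 2.83% in the right list alone and 0.406% in the left list alone. Hoxa4 was in a right peak, 346 bp from a left one, and Hoxa13 in a left peak, 143 bp from a right one. Within the genes and 3 kb around them, left peaks covered 571 kb and right peaks 573 kb. The ratio of right to left bases was 1.004, against 1.503 over all protein-coding genes. By the assignment, however, 4 Hox genes were listed in both, Hoxa10, Hoxc4, Hoxd10 and Hoxd8 in the left list alone, and 31 in neither. The left peaks given to these 4 were covered to between 99.7 and 100% by right peaks, which were given to Hottip, Gm15050, Hotair or Gm14424. For these 4 genes the lists differed in the gene named and not in the place covered.

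Of 92 other homeobox factors, 77 (83.7%) had their start site in peaks of both lists, against 6.92% of protein-coding genes, 8 in the right list alone, 1 in the left list alone and 6 in neither. The latter 6 were Emx1, Emx2 and Lhx2, which the forebrain keeps in use, and also Pou3f4, Prrx2 and Tlx2. Among the 8 in the right list alone, a left peak was 14 bp from the start site of Hmx3 and 15 bp from that of Barhl2. Meis2, a cofactor of homeobox proteins, differed most by size: its start site was in an 8306 bp right peak, 1354 bp from a left peak, and 14485 bp of the gene were covered in the left list and 37188 bp in the right list. Lhx9 was the 1 in the left list alone, by the longest annotated form, whose start site lay in a 4327 bp left peak and 3637 bp from a right peak. The RefSeq start site printed above lay in a right peak instead, so the 2 start sites of 1 gene had opposite states.

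Of 98 other developmental factors, 79 had their start site in both lists, 3 in the right list alone (Foxd3, Sox10 and Sox18), 0 in the left list alone and 16 in neither. The shares of all protein-coding genes were 6.92%, 2.83%, 0.406% and 89.8%, so the count in the right list alone was near that of all genes. A left peak was 158 bp from the start site of Foxd3, a neural crest factor, and 641 bp from that of Sox10, the factor of the oligodendrocyte lineage. Sox18, an endothelial factor, lay in a 3766 bp right peak and 181683 bp from a left one. Ebf1 had the widest cover, 354791 bp in the left list and 375769 bp in the right list. Prdm16, a zinc finger factor of neural stem cells, had 91769 and 139223 bp. Runx1, a blood factor whose start site was in neither list, had 57014 and 88224 bp. The cortical factors Tbr1, Bhlhe22 and Nr2f1 were in neither.

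Genes of the left-right axis of the embryo were included because the comparison is one of sides. Of the 44 genes 42 had a start site under that name. Of these, 12 were in both lists, 1 (Lefty2) in the right list alone, 0 in the left list alone and 29 in neither. Over all protein-coding genes the shares were 6.92% in both, 2.83% in the right list alone and 0.406% in the left list alone. Nodal, the signal that sets the left side, was in a peak of 4644 bp in the left list and 4956 bp in the right list. Lefty2, a Nodal inhibitor, had 3 right peaks, and the nearest left peak was 44720 bp away. Its peak over the start site was also overlapped in the sedentary SIT and exercised left lists. Another promoter peak of Lefty2, of 5165 bp, was overlapped in the exercised left but not in the sedentary SIT list. Lefty1, its neighbour, was in neither by start site and had a 2715 bp right promoter peak, 2995 bp from a left peak. Dnah11, a dynein of the motile cilia of the node, had 73568 bp covered in the left list and 106167 bp in the right list. Dll1, a Notch ligand, had 1 right peak 40342 bp from its start site.

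Glutamate receptor genes, which excitatory neurons express and whose density is known to differ between the hippocampi, were looked at next. Of 26, 20 had start sites in neither list, 4 in both (Grin2c, Grik1, Grm4 and Grm6, 15.4%) and 2 in the right list alone (Grik3 and Grm8), where all protein-coding genes had 89.8% in neither and 6.92% in both. Grin1, Grin2a, Grin2b and Gria1 to Gria3 were among the 20. Grik3 had 1668 bp covered in the left list and 36900 bp in the right list, and its start site was also inside sedentary SIT and exercised left peaks but not exercised right ones. Grik1, another kainate receptor subunit, had 133513 and 210343 bp. Grm8, a presynaptic receptor, had its start site in an 11728 bp right peak with a left peak 1 bp from the start site. Over the list, the ratio of right to left bases was 1.61, near the 1.503 of all protein-coding genes.

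Markers of the tagged neurons had start sites mostly in neither list, as did 89.8% of all protein-coding genes, and those of interneurons were in both lists more often than the 6.92% of all genes. Of 16 excitatory neuron markers, 15 had start sites in neither list, among them Emx1, Camk2a, Slc17a7, Neurod2 and Rbfox3, and 4 of the 16 were in H4K8ac peaks of sedentary left and 3 in those of sedentary right hippocampus. The exception was Prox1, the factor of dentate granule cells. It was in a 46822 bp right peak, 778 bp from a left peak, with 33782 bp covered in the left list and 56821 bp in the right list. Of 26 GABAergic interneuron markers, 17 were in both lists, among them Gad2, Slc32a1, Sst, Npy, Lhx6 and Dlx1, and 1 and 0 were in H4K8ac peaks of the right and left hippocampus. H4K8ac peaks of left and right hippocampus lay on 14.4% and 12.3% of all protein-coding start sites in neither list. They lay on 0.132% and 0.198% of those in both lists. Vip was in the left list alone, 458 bp from a right peak, and 2 markers, among them Calb2, for calretinin, were in the right list alone. Calb2 lay in a 4006 bp right peak, 47744 bp from a left one, and inside sedentary SIT and exercised left peaks. Reln had 246608 and 326694 bp covered, and Sox6 309688 and 404571 bp.

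Glial and vascular markers were marked in part. Over all protein-coding genes 6.92% of start sites were in both lists, 2.83% in the right list alone and 89.8% in neither, and the microglia markers were near the first of these shares. Of 12 astrocyte markers, 4 (Gja1, Gjb6, Fgfr3 and Slc7a10) were in both lists and 8, among them Gfap, Aqp4 and Slc1a2, in neither. Of 15 oligodendrocyte markers 5 were in both, 2 (Mag and Sox10) in the right list alone and 8 in neither. Of 14 microglia markers, Tmem119 was in both, Cx3cr1 and C1qc in the right list alone and 11 in neither, and a left peak was 367 bp from the start site of C1qc, a complement subunit. Of 9 endothelial markers 4 were in both, among them Cldn5 and Kdr, and Sox18 in the right list alone. Tie1, an endothelial receptor, had 3 right peaks with 7020 bp within the gene and 3 kb around it and 0 bp in the left list. Right peaks covered 1.33 times the bases of left peaks over the astrocyte list, 1.197 times over the oligodendrocyte list, 1.71 times over the microglia list and 1.49 times over the endothelial list, against 1.503 times over all protein-coding genes. The share of other cell types among the nuclei, and its part in these values, was not tested.

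Of the 27 genes of the Polycomb machinery itself, which write, bind and erase the mark, 0 had a start site in a peak of either list (interval up to 12.5%), and 89.8% of all protein-coding genes had none either. Cbx8, a subunit of Polycomb repressive complex 1, had 2856 bp covered in the left list and 5405 bp in the right list. Of 36 imprinted genes, which are expressed from 1 parental copy, 7 had start sites in both lists (Ascl2, Dlk1, Gnas, Grb10, Kcnq1, Phlda2 and Slc22a3), 3 in the right list alone (Igf2, Nespas and Slc22a18), 0 in the left list alone and 26 in neither, against 6.92%, 2.83%, 0.406% and 89.8% of all protein-coding genes. Kcnq1 had 27622 bp covered in the left list and 54125 bp in the right list, and Grb10 33792 and 49172 bp. A left peak was 133 bp from the start site of Igf2. Slc22a18, an organic cation transporter of the same imprinted cluster as Kcnq1, was 14817 bp from one.

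**Figure D5:**
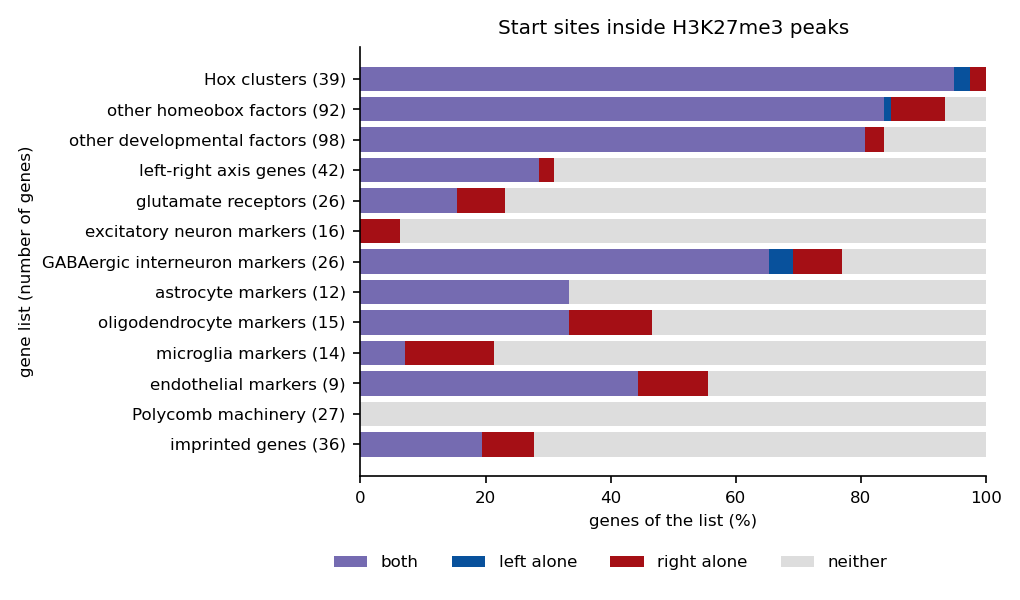
Share (%) of the genes of 13 lists whose start site lies in a peak of both lists, of the left list alone, of the right list alone or of neither, with the number of genes in brackets. Hox and other developmental factors are mostly in both. Excitatory neuron markers (15 of 16) and the Polycomb machinery (27 of 27) are mostly or wholly in neither, as are 89.8% of all protein-coding genes, of which 2.83% are in the right and 0.406% in the left list alone.

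By the assignment of peaks, 24 members of these lists were in 1 hemisphere alone. The 5 in the left list alone (Hmx3, Hoxa10, Hoxc4, Hoxd10 and Hoxd8) each had a peak overlapped in the right list, while none of the 19 in the right list alone was overlapped in the left list. Over all 6301 genes with an assigned peak, 4.49% were in the left list alone and 25.9% in the right list alone. Such an overlapped peak was held by 23.7% and 2.82% of these. Of the 432 listed genes counted once, right peaks covered more bases in 159, left peaks in 19, both equally in 121 and neither any in 133. Right peaks covered 1.19 times the bases of left peaks over these genes and 1.503 times over all protein-coding genes. At Dlx1, Dlx5 and Sp8, which lie in long domains, the lists covered equal numbers of bases of the gene and 3 kb around it.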

How the data were processed

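The peak lists were made by the authors from CUT&RUN libraries. Per the labels' processing notes they used FastQC 0.11.9, Bowtie2 2.4.1, SEACR and ChIPseeker 1.8.6. By the study's methods, peaks were called in the stringent mode of SEACR with a numeric threshold, which a figure legend describes as a top percentage of peaks. They were annotated against mm10 and given symbols with biomaRt. The methods leave unsaid how the libraries of a group were merged. The deposited columns used here are peak starts, ends and widths in bp, distances to start sites in bp, classes and symbols. They hold no counts or signal, so depth is unknown and none of the results carries a test. No comparison columns of the authors were present in these lists, and IgG samples were not used.

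Each list was assigned to its group by antibody, condition and hemisphere in the labels. Peaks overlapped if they shared at least 1 bp. Domains joined peaks 3000 bp or less apart, and broad meant 20 kb or more. Peaks with no symbol entered no gene comparison. Start sites were those of GENCODE M21 genes and promoters those of RefSeq, both on GRCm38, the build of the lists. Named were the members of 13 gene lists, the 10 single-list genes per side with the largest total width and no peak touching the other list, the 5 widest peaks per list, the 10 domains per side with the largest difference in bases, and the 5 widest single-list domains. The members and lists were chosen with earlier results of these data known. Variations were equal list lengths, reciprocal and near overlap, chromosomes, widest peaks, kinds and numbers of peaks per gene, covered bases, gaps, broad spans, start site windows and all genes. The exercised left list cut to the length of the exercised right list, the exercised SIT list, and the reciprocal overlap by groups of width were added after seeing the data. The interval functions were tested on simulated data and matched base-by-base counts in 20 of 20 sets. Some members of the gene lists and 1 of the domains are not reported here by name. Python 3.11.15, numpy 2.4.6, pandas 2.3.3 and matplotlib 3.10.9 were used.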

Additional observations from a re-analysis of the deposited data

Results flagged for a closer look

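The side with more H3K27me3 peaks differed between conditions. The ratio of right to left peak numbers was 1.504 in sedentary mice and 0.542 in exercised mice (9899 right and 18262 left peaks), so the longer list was the right one in sedentary and the left one in exercised mice. The difference was not tested, since each list is 1 pooled value. The side also differed between marks. In sedentary mice the ratio was 0.691 for H4K8ac, with 25159 right and 36425 left peaks, against 1.504 for H3K27me3. This difference was not tested either. Each sample of nuclei was divided over the antibodies. By the study's methods, its peak threshold excluded H4K8ac samples of exercised mice alone. Which of the remaining libraries entered each list is not stated.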

How the results depend on the processing

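No paired analysis was possible because each list pools the libraries of its group and no result comes from a test. Libraries could not be left out in turn for the same reason. Of 81 values under other settings, 30 stayed within bounds (counts within 1.5 times the reported count, shares within its 95% interval) and 51 moved beyond them. With lists of one length, left and right peaks shared were 81.2 and 67.1%, genes of the left list alone 631 and of the right list alone 821, the promoter share of the right list 23.0%, above the 21.3% of the left list, left-alone and right-alone domains 1967 and 3196, and left-alone start sites 134. Left-alone peaks were then found in sedentary SIT, exercised left and exercised right for 20, 47.6 and 13.7%, and right-alone peaks for 25.9, 50.9 and 11.3%. With a reciprocal overlap of 50%, 52.6% of left and 34.98% of right peaks were shared, and 6868 left and 14167 right peaks counted as alone. In these other sets, left-alone peaks were found for 23.4% in sedentary SIT, 33.5% in exercised left and 22.2% in exercised right. Right-alone peaks were found for 16.6, 27.6 and 5.53%. This turned the order of the left-alone and right-alone shares in the first and the second of these lists. Counting peaks within 3000 bp as shared gave 93.4 and 62.2%, with 956 left-alone and 8244 right-alone peaks. Of these, 10.4% of left-alone peaks were found in sedentary SIT, and 21.6, 47.7 and 10.3% of right-alone peaks in the 3 lists. The last share was about equal to the 10.25% of left-alone peaks. In the widest 50% of each list, 91.7 and 53.6% were shared, 2846 genes were in both, promoter shares were 27.9 and 26.1%, and left-alone and right-alone domains were 443 and 3750. Promoter peaks alone gave 989 right-alone genes and 2336 in both, and at least 2 peaks per gene 2005 in both. By covered bases, promoter shares were 31.4% for the left and 30.2% for the right list. With no gap, left-alone, right-alone and broad shared domains numbered 1420, 10329 and 753, with a gap of 10000 bp 567, 3711 and 2025, and 319 shared domains reached the longer span set for broad. Over all annotated genes, 2758 start sites were in both lists, 233 in the left and 1379 in the right list alone. The exercised left list cut to 9899 peaks held 13.8% of left-alone and 17.5% of right-alone peaks. List length, and the unknown depth behind it, limits each count of peaks or genes in 1 list alone. The labels give 3 samples per hemisphere, and whether all of them entered the list is not stated. The cause of the moves under other settings was not tested. In each setting the right list had the more peaks, genes, domains and start sites of its own. The cut to one length matched numbers of peaks and not bases, of which the right list still had 100 Mb and the left list 73.9 Mb.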
